A study of Homo sapiens with 402 samples.

Results

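The genes described here are 10 genes of the unfolded protein response of the endoplasmic reticulum (ER), read in MCF10A cells after 48 h with 1 of 21 chemicals. They were chosen by name: HSPA5, HSP90B1, DNAJB9, SDF2L1, HERPUD1, XBP1, PDIA4, CALR, CRELD2 and HYOU1. All 10 were listed in the files, out of 15081 gene symbols in sequencing run 1 and 34718 in run 2, and all 10 passed the filter on low counts on every plate. MCF10A is an established human line of mammary epithelium that does not form tumours. All cultures carry the label WT and came from 1 expanded passage, so the study has a single genetic background. RNA was read by plexWell, a method that barcodes the cDNA of each well and then pools the wells of a plate, at 0.025, 0.25, 2.5 and 25 µM of each chemical.

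In water, arsenic, cadmium, copper, lead and mercury were on plate 3153-AT with 15 water controls, and PFOA was on plate 3240-AT with 4 water controls. In DMSO, BPA, BPF, BPS, MPB and PPB were on plate 3206-AT with 15 controls, PFDA, PFNA, PFOS and phenanthrene on plate 3240-AT with 12 controls, and DCB_14, DCP_25, PCB153, PCB187 and thiram on plate 3284-AT with 15 controls. DDE, labelled DMSO, was on plate 2250-AT of an earlier run. The 8 controls that carry the barcode of that plate are labelled as water controls of plate 3153-AT. A dosed group had 4 libraries, described in the labels as biological replicates, except MPB and PPB at 0.025 µM with 3 each and cadmium at 25 µM with 2. A further library labelled cadmium at 25 µM carried the barcode of plate 3284-AT and was set aside. Other chemical names are printed as the labels give them.

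The 401 libraries used, 332 dosed and 69 control, held 1.43 M to 25.8 M counts (M for mega). The last numbered controls of a plate were shallower than the first. On plate 3153-AT their median totals were 3.17 M and 20.9 M, and on plate 3284-AT 3.18 M and 17.9 M. Of the markers of the labelled cell type, the basal keratin KRT5 averaged 1189 counts per 1000000 (CPM) in the 15 controls of plate 3153-AT. CD3E and ALB, markers of T cells and hepatocytes, were at 0 in all 15, and PTPRC, a leukocyte marker, was at 0 in 14. The remaining markers of other cell types, PECAM1, COL1A1 and SYP, were detected in most of these controls and averaged 1.55, 1.60 and 0.55 CPM.

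The ER folds secreted and membrane proteins, and the unfolded protein response is the programme that unfolded protein in its lumen turns on. The sensors ATF6, IRE1 (gene ERN1) and PERK (gene EIF2AK3) start it. ATF6 is cut by the site proteases and enters the nucleus, IRE1 splices the XBP1 transcript, and PERK phosphorylates eIF2α, which lowers translation and raises ATF4 and DDIT3. ATF6 and spliced XBP1 raise chaperone genes through the ER stress response element (ERSE) and related elements before the transcription start. The 10 genes cover several roles. HSPA5 (BiP) and HYOU1 are ER chaperones of the Hsp70 and Hsp110 kind, HSP90B1 (GRP94) is the ER Hsp90, and CALR (calreticulin) is a lectin chaperone that binds calcium. DNAJB9 (ERdj4) is a J-domain cochaperone of HSPA5, and SDF2L1 is part of ER chaperone complexes. PDIA4 is a protein disulfide isomerase, CRELD2 is an ER-resident protein linked to disulfide exchange, HERPUD1 acts in ER-associated degradation, and XBP1 encodes the transcription factor of the IRE1 branch.

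The sequences below show matches to elements described for this response, from RefSeq (GRCh38.p14), in the 250 bases before each RefSeq start. The ERSE was searched as CCAAT and CCACG with any 9 bases between them, and ERSE-II as ATTGG and CCACG with any 1 base between them. The core of the XBP1 element (UPRE) was searched as TGACGTGG and a core of the C/EBP-ATF element as TGATG and AA with any 1 base between them, each on both strands. ERSE was found in 0.074% of 35116 promoter windows, ERSE-II in 0.0513%, the UPRE core in 0.612% and the C/EBP-ATF core in 3.14%. Of the 10 genes, 8 held an ERSE or ERSE-II in one of their 12 windows. Over all windows 0.125% held one, which is a share of windows and not of genes. The 10 genes were chosen as known genes of this response, so their share is a description and not a test. In each line below the capitals mark the element with 10 bases of flank on either side, written 5′ to 3′ along the gene's own strand. An element that lies on the opposite strand appears as its reverse complement, which starts CGTGG for ERSE and ERSE-II and TT for the C/EBP-ATF core.
HSPA5, ERSE, chr9:125241381-125241419, minus strand: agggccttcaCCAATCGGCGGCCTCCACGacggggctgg
HSP90B1, distal ERSE, chr12:103930206-103930244, plus strand: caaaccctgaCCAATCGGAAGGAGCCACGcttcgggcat
HSP90B1, proximal ERSE, reversed, chr12:103930311-103930349, plus strand: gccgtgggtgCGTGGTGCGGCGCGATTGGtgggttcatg
XBP1, ERSE, chr22:28800593-28800631, minus strand: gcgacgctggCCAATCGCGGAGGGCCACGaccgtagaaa
CALR, ERSE, reversed, chr19:12938374-12938412, plus strand: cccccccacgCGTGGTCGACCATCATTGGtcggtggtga
CRELD2, ERSE, reversed, chr22:49918544-49918582, plus strand: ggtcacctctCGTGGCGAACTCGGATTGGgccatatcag
SDF2L1, ERSE-II, reversed, chr22:21642104-21642134, plus strand: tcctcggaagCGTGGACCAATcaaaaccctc
HERPUD1, ERSE-II, chr16:56932015-56932045, plus strand: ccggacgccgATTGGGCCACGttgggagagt
HERPUD1, C/EBP-ATF core, reversed, chr16:56931956-56931983, plus strand: acgcggcgggTTGCATCAgcccgtgccc
HYOU1, distal ERSE-II, reversed, chr11:119057370-119057400, minus strand: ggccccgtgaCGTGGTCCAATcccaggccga
HYOU1, proximal ERSE-II, reversed, chr11:119057264-119057294, minus strand: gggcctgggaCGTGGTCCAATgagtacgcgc

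The distal ERSE-II of HYOU1 overlaps a UPRE core, which starts 188 bases before the start. DNAJB9 and PDIA4 held none of the 4 motifs in these exact letters. The whole window of PDIA4 is shown because this gene fell where others rose. It is that of the first of its 2 RefSeq starts, chr7:149028491-149028740, minus strand, with no capitals because no motif matched.
PDIA4, 250 bases before the start: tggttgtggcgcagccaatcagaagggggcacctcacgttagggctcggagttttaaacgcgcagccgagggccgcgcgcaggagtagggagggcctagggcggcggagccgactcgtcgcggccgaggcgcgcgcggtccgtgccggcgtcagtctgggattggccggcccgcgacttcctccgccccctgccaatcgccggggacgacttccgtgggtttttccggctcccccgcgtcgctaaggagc
The letters ccaat, in either direction, occur 3 times in it, and 32% of all windows hold them on either strand. A match is a description of the sequence and not a measured binding site.

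Cadmium, arsenic and thiram changed these genes most at 25 µM. In cadmium all 10 genes were higher than in the water controls, by 2.02 to 4.29 on the log2 scale. In arsenic and thiram, HERPUD1, DNAJB9, XBP1 and HSPA5 rose while PDIA4 fell, and the ER chaperones HSP90B1 and HYOU1 had log2 changes between 0.00 and 0.22 in absolute size that did not pass the test. Copper and lead raised 3 genes each, by less than 1 on the log2 scale. DNAJB9 was called lower in DDE, and in the other 15 chemicals none of the 10 genes passed at 25 µM.

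**Figure D1:**
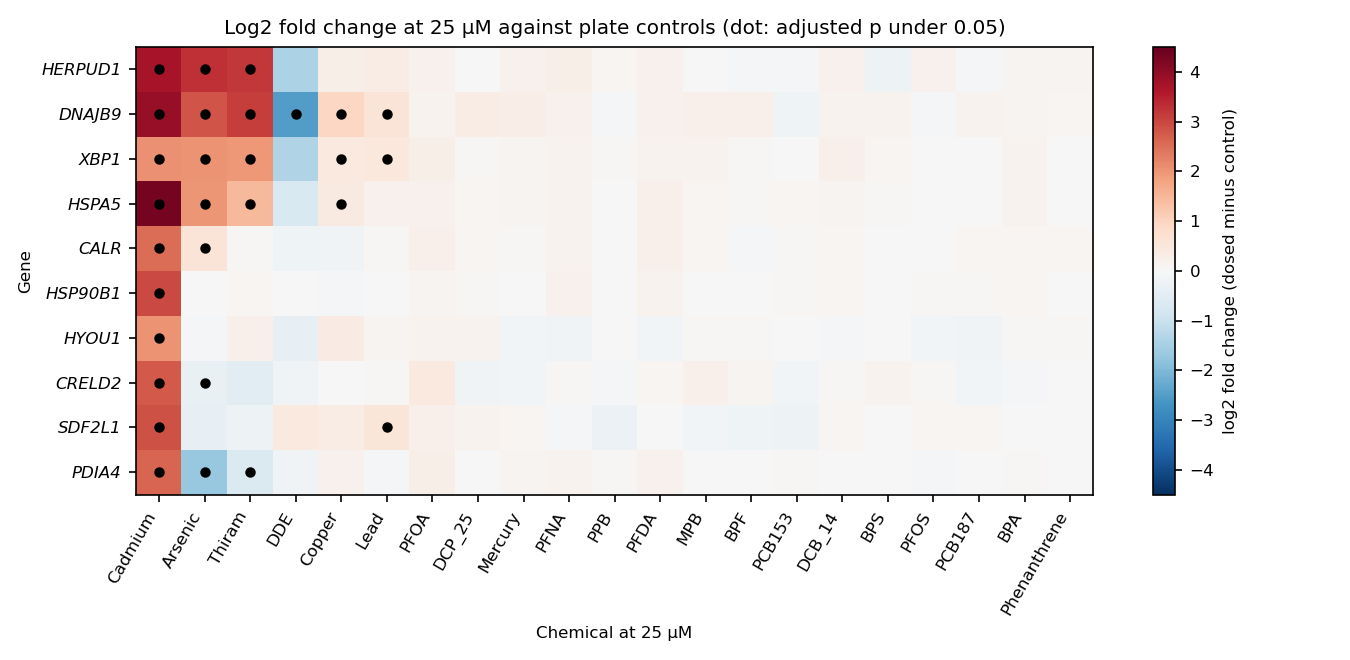
Log2 fold change of each gene (rows) at 25 µM of each chemical (columns) against the controls of its plate, with red for higher and blue for lower, and a dot where the adjusted p was under 0.05. Cadmium has a dot in all 10 rows, arsenic in 7, thiram in 5, copper and lead in 3 each and DDE in 1.

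Each fold change comes from edgeR's quasi-likelihood test on the counts of 1 plate, adjusted by the Benjamini-Hochberg method over all genes of that plate, and a gene is called at an adjusted p under 0.05. CPM are per 1000000 of the TMM-scaled library total, and the ± after a fold change is its standard error. Where genes are said not to overlap their controls, the share of all genes likewise clear of them was not counted.

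In cadmium at 25 µM the response was general across the roles, from chaperones to the transcription factor. HSPA5, the main Hsp70 of the ER, stood at 12147 and 8981 CPM in the 2 cadmium libraries. The 15 water controls lay between 473 and 629, with a median of 546. Both cadmium libraries were far above every control, and the log2 fold change was 4.29 ± 0.11 (19.6-fold, adjusted p = 7.98e-54 by edgeR). HSP90B1, the ER Hsp90, read 4715 and 3726 CPM against 435 to 625 in the controls, with a median of 525. The groups did not overlap, and HSP90B1 was 2.98 ± 0.10 higher on the log2 scale. CALR, the lectin chaperone, read 4070 and 3353 CPM against 583 to 699. It too was clear of all controls, by 2.50 ± 0.08 on the log2 scale.

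The cochaperone DNAJB9 read 287 and 157 CPM in cadmium, against 7.89 to 19.2 in the controls. The 2 libraries differed from each other but both lay above every control, and the log2 fold change was 3.90 ± 0.30. HERPUD1, of the degradation machinery, was even between the libraries at 571 and 591 CPM, against 27.1 to 54.97, a rise of 3.70 ± 0.19. SDF2L1 read 281 and 370 CPM against 28.9 to 56.4, a rise of 2.86 ± 0.23. CRELD2 read 339 and 325 CPM against 33.3 to 57.4, a rise of 2.77 ± 0.20. Neither gene overlapped its controls. The disulfide isomerase PDIA4 read 1704 and 1438 CPM against 227 to 296, a rise of 2.60 ± 0.11.

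XBP1, whose counts cannot separate the spliced from the unspliced transcript, read 475 and 518 CPM in cadmium against 102 to 138, a rise of 2.04 ± 0.17. HYOU1, the nucleotide exchange factor of HSPA5, read 409 and 203 CPM against 55.1 to 90.9, and had the smallest rise of the 10 at 2.02 ± 0.22. All 10 genes were thus called higher, where 5.67% of the 24295 genes tested were, and the largest adjusted p among them was 1.67e-12 (edgeR). The median log2 change was 2.81 over the 10 genes and -1.42 over all genes. The median over all genes changed with the analysis. It was -0.55 with cadmium and its controls fitted alone, -0.13 with the last numbered controls only and 0.07 by DESeq2.

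Both cadmium libraries were shallow, with 1.43 M and 1.45 M counts, and their TMM factors were 0.555 and 0.491. Without scaling factors every log2 rise was about 1 smaller, for HSPA5 3.34 and for HYOU1 1.09, and all 10 stayed called. That setting moved the median of all genes from -1.42 to -2.13 and the calls over all genes from 1378 higher and 1306 lower to 774 and 4784, and RLE scaling gave 1597 and 971. In bulk RNA, fewer cells and less RNA per cell cannot be told apart. The library labelled cadmium at 25 µM with the barcode of plate 3284-AT had 1.28 M counts and did not show these rises. In reads per 1000000 of its total, HSPA5 was at 526 (6747 and 4410 in the other 2, 456 to 710 in the controls) and HERPUD1 at 52.2 (317 and 290, with controls of 30.1 to 58.6). With it included, all 10 genes were still called, with HSPA5 at 3.73 and HYOU1 at 1.46 on the log2 scale.

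Arsenic at 25 µM split the 10 genes. HERPUD1 stood at 408, 432, 425 and 474 CPM in the 4 libraries, above all 15 water controls, whose median was 42.7. The log2 fold change was 3.28 ± 0.11 (9.72-fold, adjusted p = 6.9e-45 by edgeR). DNAJB9 read 93.2, 95, 121 and 119 CPM against a control median of 13.7, a rise of 2.84 ± 0.14. XBP1 read 455, 469, 481 and 564 CPM against a median of 123, a rise of 2.03 ± 0.09. HSPA5 read 1895, 1987, 2274 and 2459 CPM, a rise of 1.996 ± 0.10. These 4 genes were clear of the controls in every library.

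CALR rose less in arsenic, to 1038, 936, 932 and 1028 CPM from a control median of 655, which is 0.59 ± 0.07 on the log2 scale with no overlap. PDIA4 went the other way, reading 84.8, 78.4, 69.2 and 83.7 CPM. All 4 values lay below the lowest control at 227, and PDIA4 fell by 1.71 ± 0.10 on the log2 scale (adjusted p = 4.8e-27 by edgeR). CRELD2 read 33.4, 45.1, 26.9 and 48.2 CPM and mostly overlapped its controls. It passed narrowly, having dropped by 0.33 ± 0.13 (adjusted p = 0.0359 by edgeR), and lost the call in 11 of 15 alternative analyses, among them DESeq2 with an adjusted p of 0.214.

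SDF2L1 had a log2 change of -0.35 ± 0.15 (adjusted p = 0.0559), HYOU1 one of -0.10 ± 0.13 and HSP90B1 one of 0.00 ± 0.09 in arsenic. The 4 HSP90B1 values, 535, 541, 587 and 491 CPM, lay within the control range. In all, 5 genes were called higher and 2 lower, where 23.2% and 18.2% of all genes were. The median of the 10 was 0.30 on the log2 scale, beside 0.00 over all genes.

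Thiram at 25 µM, on another plate with DMSO controls, gave values for the same 4 risen genes in a like range. HERPUD1 stood at 377, 538, 447 and 328 CPM against 24.2 to 62.7 in the 15 controls, and its log2 fold change was 3.17 ± 0.11 (8.99-fold, adjusted p = 5.84e-48 by edgeR). DNAJB9 read 69.5, 137, 239 and 127 CPM against 2.80 to 26.6, a rise of 3.13 ± 0.18. XBP1 read 408, 461, 470 and 349 CPM against 76.3 to 132, a rise of 1.96 ± 0.09. HSPA5 read 1451, 2003, 1524 and 1333 CPM against 529 to 700, a rise of 1.46 ± 0.07. None of these 4 genes overlapped its controls, which is a description, as the share for all genes was not counted.

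PDIA4 read 214, 207, 139 and 159 CPM in thiram, with 2 of the 4 values below the lowest control at 183, and fell by 0.64 ± 0.11 (adjusted p = 2.51e-06 by edgeR). CRELD2 read 55.9, 54.97, 25.8 and 24.0 CPM. Libraries 3 and 4 were low and libraries 1 and 2 were not, and the log2 change of -0.49 ± 0.19 did not pass (adjusted p = 0.0528). HYOU1 at 0.22 ± 0.14, HSP90B1 at 0.10 ± 0.07, CALR at 0.05 ± 0.08 and SDF2L1 at -0.23 ± 0.19 did not pass either. Thus 4 genes were higher and 1 lower, where 13.7% and 12.2% of the 21307 genes tested were. DESeq2 called 8 of the 10, adding HSP90B1, HYOU1 and CRELD2. Over all genes it called 3267 higher and 3456 lower, where edgeR called 2927 and 2589. The thiram libraries were shallower than most, at 2.46 M to 6.29 M counts.

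**Figure D2:**
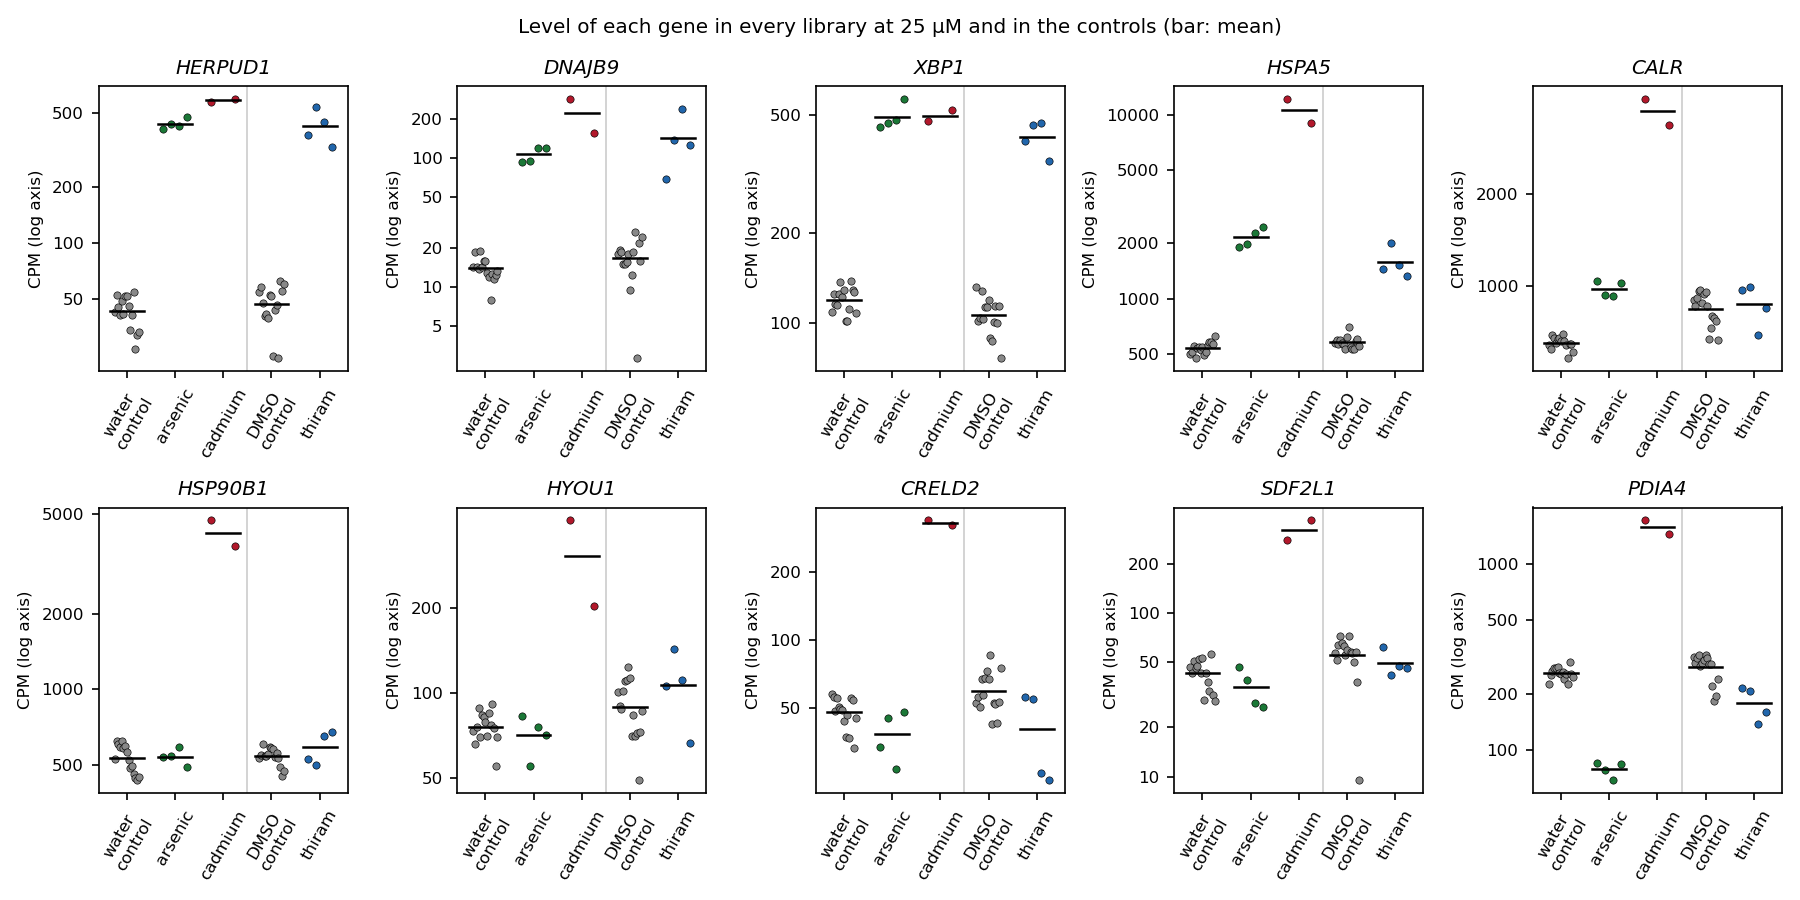
Each point is 1 library, the bar is the group mean and the vertical axis is CPM on a log scale, for the 25 µM groups of arsenic (4 libraries), cadmium (2) and thiram (4) and their 15 water or 15 DMSO controls. HERPUD1, DNAJB9, XBP1 and HSPA5 lie above the controls in all 3 chemicals, while PDIA4 is at 69.2 to 84.8 CPM in arsenic and at 1438 and 1704 CPM in cadmium.

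Arsenic and cadmium shared a plate and its controls, so their 25 µM groups were compared directly. The difference is given as arsenic minus cadmium on the log2 scale, by edgeR. It was -4.31 ± 0.14 for PDIA4, -3.21 ± 0.26 for SDF2L1, -3.10 ± 0.22 for CRELD2 and -2.97 ± 0.14 for HSP90B1. It was -2.29 ± 0.16 for HSPA5, -2.12 ± 0.24 for HYOU1, -1.92 ± 0.11 for CALR and -1.07 ± 0.28 for DNAJB9. These 8 genes were all lower in arsenic, where 4.32% of genes were called lower. XBP1 differed by -0.01 ± 0.18 and HERPUD1 by -0.42 ± 0.21 (adjusted p = 0.281), and neither passed. The scaling moved these values. Without scaling factors 7 of the 8 were still called lower in arsenic, from -3.34 for PDIA4 to -0.94 for CALR, and DNAJB9, at -0.09 ± 0.27, was not (adjusted p = 0.946 by edgeR). XBP1, at 0.98 ± 0.20 (adjusted p = 9.33e-05 by edgeR), and HERPUD1, at 0.57 ± 0.19 (adjusted p = 0.0281 by edgeR), were then called higher in arsenic. DNAJB9 also lost its call without replicate 1 (-0.49) and with the set-aside cadmium library included (-0.33). Thiram was on another plate and was not compared with either metal.

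Epithelial markers moved in the same groups. Their summed level, over 7 genes and per 1000000 of the unscaled total, was 754 to 1389 in the arsenic libraries and 867 and 1572 in the cadmium libraries, against 1702 to 2599 in the controls. In thiram it was 1434 to 1824 against 1355 to 2187. KRT5 was lower by edgeR in all 3, with log2 changes of -3.36 in arsenic, -0.98 in cadmium and -1.37 in thiram. Of the 7 markers 1 was called higher and 6 lower in arsenic, 1 and 3 in cadmium and 2 and 2 in thiram. The keratin KRT17 was the one higher in all 3, at 0.84 in arsenic, 1.78 in cadmium and 2.19 in thiram, and KRT14 was higher in thiram (2.23) and lower in arsenic (-2.03). The summed level of the 6 markers of other cell types was 2.89 to 14.1 in arsenic, 2.75 and 4.88 in cadmium and 4.48 to 12.4 in thiram, against 1.38 to 5.35 in the water and 0 to 10.6 in the DMSO controls. Among them ALB, a hepatocyte gene at 0 in every water control, averaged 1.55 ± 1.06 CPM (SD, n = 4) in arsenic, and the fibroblast gene COL1A1 4.10 ± 2.02 against 1.60 ± 0.84 (SD, n = 15), both called higher. The part of these shifts, or of depth, in the changes of the 10 genes was not tested.

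Most changes were at the top dose, where 29 of 210 gene and chemical pairs were called and 4.85% of all gene and chemical pairs were. At 2.5 µM, 8 of 210 gene and chemical pairs were called, all of them higher, where 0.188% of all gene and chemical pairs were (46 of the 210 at an unadjusted p under 0.05, and 10 called by DESeq2). By chemical, 4.13% (DCP_25) to 23.3% (DDE) of all genes had such an unadjusted p at 2.5 µM. Cadmium gave 4 of the 8 calls, where 0.206% of genes were called higher. HSPA5 stood at 1043, 1189, 695 and 917 CPM in the cadmium libraries at 2.5 µM, all above the highest control at 629, a rise of 0.83 ± 0.10 (adjusted p = 7.52e-09 by edgeR). HERPUD1 read 102, 136, 56.4 and 70.6 CPM, all above the highest control at 54.97, a rise of 1.01 ± 0.13. DNAJB9 rose by 0.75 ± 0.17 and HSP90B1 by 0.43 ± 0.09, with 3 of 4 libraries above all controls for each. Replicates 1 and 2 were the higher in HSPA5, HERPUD1 and DNAJB9, and within replicates 3 and 4 with their own controls the log2 values were 0.53 for HSPA5, still called, and 0.70 for HERPUD1, not called. The calls of DNAJB9 and HSP90B1 were each lost when replicate 1 or 2 was left out. Both were also lost against the first numbered controls only, where HSP90B1 was at 0.28.

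At 2.5 µM XBP1 was also called in copper at 0.51 ± 0.10, lead at 0.44 ± 0.10 and arsenic at 0.37 ± 0.11, and SDF2L1 in copper at 0.53 ± 0.13. The shares of all genes called higher were 1.41% in copper, 0.387% in lead and 0.906% in arsenic. The XBP1 call was lost in 8 of 14 alternatives in arsenic and in 6 of 14 in lead, and that of SDF2L1 in copper in 2 of 14. At 0.25 µM a single pair of 210 was called (0.0748% of all pairs, 43 of the 210 at an unadjusted p under 0.05, and 7 called by DESeq2), HSP90B1 in PFDA at 0.33 ± 0.07 (adjusted p = 0.00817 by edgeR), where 0.519% of genes were called higher. Its 4 libraries averaged 667 ± 131 CPM (SD, n = 4) against 531 ± 38.7 (SD, n = 12), with 3 of 4 above all controls, and the value was 0.14 within replicates 3 and 4, not called. At 0.025 µM edgeR called none of 210 pairs, with 30 at an unadjusted p under 0.05 and 1 called by DESeq2, DNAJB9 in cadmium. Of all gene and chemical pairs at 0.025 µM, 0.0104% were called. By chemical, the share of all genes at an unadjusted p under 0.05 was 3.71% (DCP_25) to 16.9% (DDE) at 0.025 µM. At 0.25 µM that share was 3.63% (cadmium) to 26.3% (DDE).

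A linear trend over the 4 doses was tested without the controls and is given as the log2 change per 10-fold dose. In cadmium it was positive and passed for all 10 genes (4.18% of all genes), from 0.61 ± 0.07 for HYOU1 to 1.36 ± 0.05 for HSPA5. In arsenic 5 genes had a positive trend (14.2% of all genes), led by HERPUD1 at 1.005 ± 0.05, and PDIA4, SDF2L1 and CRELD2 a negative one (15.6%), with PDIA4 at -0.57 ± 0.04. In thiram the 4 risen genes had a positive trend (9.24%) and PDIA4 a negative one (9.27%) of -0.20 ± 0.04. In copper DNAJB9 alone passed, at 0.27 ± 0.06 (1.04%). The other 17 chemicals had no trend called by edgeR or DESeq2 in the 10 genes, with 11 of 170 values at an unadjusted p under 0.05 and 0.0791% of all pairs called. By chemical, 3.52% (DCP_25) to 11.6% (PFNA) of all genes had such an unadjusted p for the trend. For lead, same-numbered replicates deviated together. The fit with a replicate block called 3 positive trends there, in XBP1 (0.13), DNAJB9 (0.18) and SDF2L1 (0.11), where 4.99% of genes were.

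**Figure D3:**
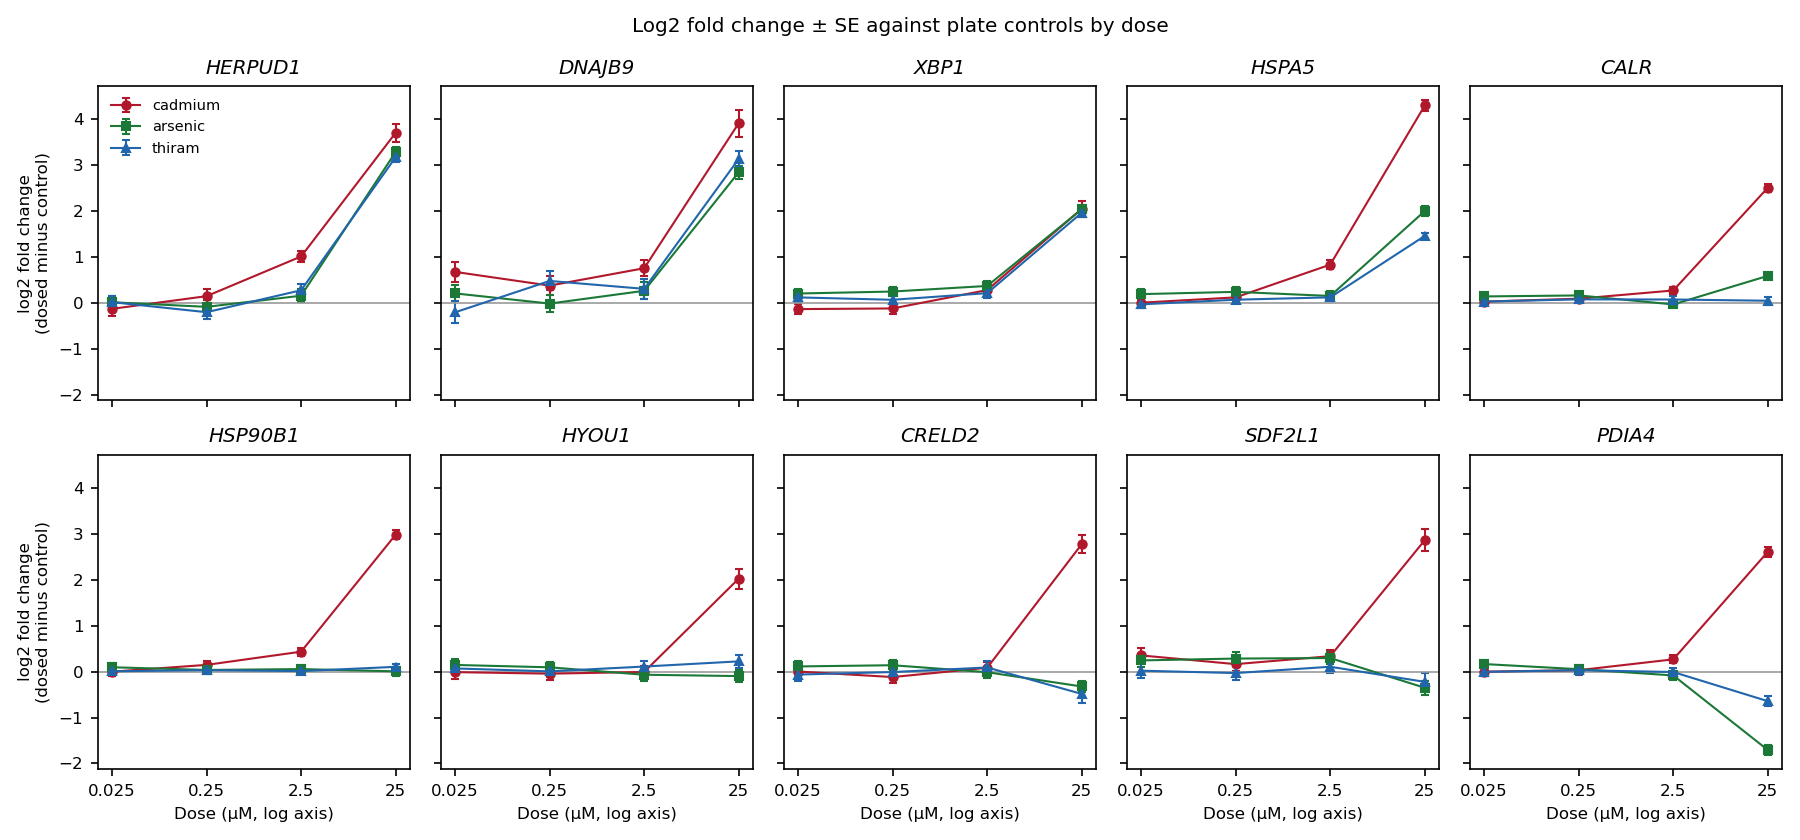
Log2 fold change against the plate controls (vertical axis, bars are ± SE) by dose in µM on a log axis, for cadmium, arsenic and thiram, in 1 panel per gene. The cadmium lines of HERPUD1 (1.01), HSPA5 (0.83) and DNAJB9 (0.75) lie above 0 already at 2.5 µM, and at 25 µM HSPA5 in cadmium reaches 4.29 and PDIA4 in arsenic falls to -1.71.

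Copper and lead at 25 µM raised fewer of the genes and by less. In copper DNAJB9 read 44.6, 29.5, 18.6 and 20.1 CPM against 7.89 to 19.2 in the controls, a rise of 0.94 ± 0.16 (adjusted p = 9.98e-06 by edgeR). Replicates 1 and 2 were clear of the controls and replicate 3 was within their range. XBP1 rose by 0.45 ± 0.10 and HSPA5 by 0.39 ± 0.11, the latter at 645 to 744 CPM in all 4 libraries against at most 629 in the controls. These 3 genes compare with 2.88% of genes called higher. Within replicates 1 and 2 and their own controls 7 genes were called, and within replicates 3 and 4 DNAJB9, XBP1 and HSPA5 all lost their calls. Over all genes, replicates 1 and 2 gave 1319 higher and 1060 lower of 21703, and replicates 3 and 4 gave 221 and 145 of 20365. All 4 together gave 700 and 536 of 24295. Without replicate 1 only DNAJB9 stayed called.

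In lead XBP1 read 176, 179, 150 and 167 CPM against 102 to 138, all above the controls, a rise of 0.48 ± 0.10 (adjusted p = 0.00104 by edgeR). DNAJB9 was even at 22.8, 23.2, 22.2 and 21.3 CPM, also above all controls, a rise of 0.58 ± 0.17. SDF2L1 read 71.4, 67.2, 53.01 and 69.7 CPM, with 3 of 4 above the highest control at 56.4, a rise of 0.54 ± 0.13. The share of all genes called higher in lead was 2.15%, and within replicates 3 and 4 only SDF2L1 stayed called. SDF2L1 and DNAJB9 lost their calls without replicate 1.

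DDE at 25 µM differed in direction, and its controls were uneven. These controls are labelled water and the DDE libraries DMSO, so solvent and chemical cannot be told apart. DNAJB9 read 27.6, 20.6, 19.5 and 14.4 CPM in the DDE libraries and 25.3 to 362 CPM in the 8 controls of that plate, with a mean and SD of 120 ± 131. XBP1 in the same controls ran from 145 to 801 CPM and HERPUD1 from 53.8 to 347 CPM, and controls 9, 15 and 16 were the highest in all 3 genes. DNAJB9 was called lower by edgeR at -2.50 ± 0.75 (adjusted p = 0.0453), where 4.22% of genes were. The call was lost when any of controls 9, 15 or 16 was left out, and in 9 of 18 alternatives in all. No other gene passed, and HERPUD1 at -1.42 ± 0.47 and XBP1 at -1.35 ± 0.43 had adjusted p of 0.0583 and 0.0526.

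In the other 15 chemicals at 25 µM the 10 genes stayed near their controls. Of 150 values edgeR called none, with 16 at an unadjusted p under 0.05 and none called by DESeq2, and 0.114% of all gene and chemical pairs in these chemicals were called. By chemical, 4.36% (mercury) to 11.3% (PFNA) of all genes had such an unadjusted p. The log2 changes of the 10 genes ran from -0.27 (SDF2L1 in PPB) to 0.45 (CRELD2 in PFOA), and the largest standard error was 0.231. HSPA5 lay between -0.03 in PFOS and 0.25 in PFDA, and the latter had the smallest adjusted p, 0.213. HERPUD1 lay between -0.22 in BPS and 0.27 in PFNA, DNAJB9 between -0.19 in PCB153 and 0.32 in DCP_25, and XBP1 between -0.03 in PFOS and 0.27 in PFOA. PDIA4, which fell in arsenic and thiram, lay between -0.04 and 0.27. Mercury, on the plate of the other metals, ranged over the 10 genes from -0.12 to 0.28. At 0.025 and 0.25 µM, over 20 chemicals without DDE, the log2 changes with the largest size were those of DNAJB9, at 0.67 in cadmium (0.025 µM) and 0.66 in PCB153 (0.25 µM), and neither passed. At 0.025 µM PFOA and phenanthrene had 7 genes each at an unadjusted p under 0.05 and PFDA had 5, all higher and all on plate 3240-AT. PFOA, with 4 water controls, also had 7 at 0.25 µM and 7 at 2.5 µM, all higher. The median of the 10 in PFOA was 0.24, 0.27 and 0.25 from 0.025 to 2.5 µM, beside 0.00, 0.00 and 0.01 over all genes.

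Among controls, the solvent and the numbering moved some of the genes. On plate 3240-AT HYOU1 averaged 85.5 ± 3.03 CPM in water (SD, n = 4) and 115 ± 7.76 CPM in DMSO (SD, n = 12), a difference of -0.43 ± 0.09 on the log2 scale (adjusted p = 0.000796 by edgeR). HYOU1 was 1 of 10 called lower in water, where 1.95% of genes were. The last numbered controls were lower than the first in HSP90B1 by -0.29 ± 0.06 on plate 3153-AT, and in HYOU1 by -0.51 ± 0.12, CALR by -0.26 ± 0.05 and PDIA4 by -0.26 ± 0.08 on plate 3284-AT. On plate 3206-AT XBP1 was higher in the last controls by 0.28 ± 0.08. On plate 3240-AT edgeR called none of the 10, with none at an unadjusted p under 0.05 (9.45% of all genes). The shares of all genes called between first and last controls on these 4 plates were 20.3%, 6.38%, 6.07% and 0.546%.

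Genes around the 10 in the same pathway were described from lists of ER and stress genes, by the number called at 25 µM, against the shares of all genes given above for each chemical. In the PERK and ATF4 branch, 8 of 9 genes rose and 1 fell in arsenic and in thiram, and 6 rose and 1 fell in cadmium. The transcription factor ATF3 rose by 9.26 ± 0.23 in arsenic, 9.84 ± 0.34 in thiram and 7.93 ± 0.57 in cadmium, from means under 1 CPM in the controls. CHAC1, a glutathione-degrading target of ATF4, rose by 7.33 in arsenic and 5.94 in thiram, and PPP1R15A, which brings a phosphatase to eIF2α, by 7.03 in cadmium. DDIT4 fell by 2.23 in arsenic, 1.96 in thiram and 2.48 in cadmium. Among the lowest of the called genes were ATF4 itself, at 1.48 in arsenic and 0.79 in thiram, and TRIB3, at 2.51 in cadmium.

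The cytosolic chaperones rose in all 3 chemicals, 9 of 9 in each. HSPA1A rose by 7.31 ± 0.22 in cadmium, 4.69 ± 0.19 in arsenic and 4.15 ± 0.14 in thiram, and HSPA1B by 6.73, 3.73 and 4.67. HSPA1A and HSPA1B are near-identical copies, so the split of reads between them is uncertain. The smallest rises were in HSP90AA1 and HSP90AB1 in arsenic (0.36 and 0.62) and thiram (0.75 and 0.70), and in HSP90AB1 and HSPA8 in cadmium (0.39 and 1.79). HSP90AB1 in cadmium turned to -0.58 without scaling factors.

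The median log2 change of the PERK and ATF4 list was 3.44 in cadmium, 4.27 in arsenic and 4.13 in thiram, and that of the cytosolic chaperones 4.06, 1.39 and 2.36. Over all genes the medians were -1.42, 0.00 and -0.11, where the cadmium value changed with the analysis as given above. In the same order the medians were -0.60, 0.26 and -0.35 for sensors, 0.70, 0.27 and 0.17 for folding factors, 0.94, 0.13 and 0.01 for disulfide isomerases, 0.97, 0.63 and 0.18 for ER-associated degradation, 0.68, 0.30 and 0.21 for the translocon list and 0.55, 0.36 and 0.09 for ER to Golgi transport.

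Of the sensors and site proteases, ATF6 (1.29), ERN1 (1.18) and EIF2AK3 rose in arsenic while MBTPS2 (-0.85), MBTPS1 (-0.76) and ATF6B fell. In thiram ERN1 was called higher by 1.31 ± 0.36, but its libraries were uneven. They averaged 18.8 ± 19.1 CPM (SD, n = 4) against 8.10 ± 2.92 (SD, n = 15). In thiram 3 of the 6 genes fell, led by MBTPS2 at -1.05 and MBTPS1 at -0.88. In cadmium MBTPS1 alone was called, at -2.27. Other ER folding factors were called higher in 5 of 13 genes and lower in none in cadmium, with MANF at 3.66 ± 0.14 and DNAJB11 at 3.10 highest and DNAJC1 at 1.34 and PPIB at 1.63 lowest. In arsenic 6 rose and 2 fell, with SEC63 at 1.46 and DNAJC1 at 1.40 highest and MANF at -1.07 and PPIB at -0.47 lowest. MANF, a secreted ER stress factor, and PPIB, a prolyl isomerase of the ER, were therefore called higher in cadmium and lower in arsenic. In thiram 3 rose and 1 fell, among them DNAJC3 at 1.06, DNAJC1 at 0.55, SEC63 at 0.38 and SIL1 at -0.71.

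Disulfide isomerases and ER oxidases were called higher in 5 of 10 and lower in none in cadmium, from PDIA6 at 0.78 and PDIA3 at 1.10 to P4HB at 1.68 and QSOX1 at 1.73. In arsenic 5 rose and 4 fell, with ERO1B, an ER oxidase, at 2.54 and QSOX1 at 1.41, and with TXNDC5 at -1.69 and PDIA5 at -1.41. In thiram 2 rose, ERO1B at 2.12 and ERP44 at 0.50, and 3 fell, led by TXNDC5 at -0.95 and PDIA5 at -0.83. ER-associated degradation genes were called higher in 6 of 12 in cadmium, with SEL1L at 2.07 and EDEM1 at 1.78 highest and FAF2 at 0.95 and SELENOS at 1.38 lowest. In arsenic 8 rose and 2 fell, with SEL1L at 1.42, DERL1 at 1.35, EDEM3 at -0.60 and EDEM2 at -1.65. In thiram 4 rose and 1 fell, among them SELENOS at 1.11, SEL1L at 0.91, EDEM1 at 0.61 and EDEM2 at -0.95.

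Translocon and signal peptidase genes were called higher in 6 of 12 in all 3 chemicals. SEC61G led in cadmium (2.03) and SEC61B in thiram (1.08), SEC61G (0.9996) and SEC61B (0.9965) stood level in arsenic, and SSR3 was second in cadmium (1.72) and in thiram (0.83). The lowest called were SEC61A1 (0.70) and SRPRA (0.71) in cadmium, SRPRB (-0.27) and SSR1 (-0.23) in arsenic, neither of them called under RLE scaling, and SRPRB (-0.52) and SPCS1 (-0.44) in thiram. Of 9 genes of ER to Golgi transport, 7 rose in arsenic, with KDELR3 at 2.56 and SEC24D at 1.79 highest and TMED2 at 0.21 and MCFD2 at 0.33 lowest. In thiram 2 rose, SEC24D at 1.94 and SEC31A at 0.61, and in cadmium 4 rose, from TMED2 at 0.44 to MCFD2 at 0.89. Without scaling factors the cadmium values of KDELR1, KDELR2, MCFD2, TMED2, PDIA6, SEC61A1 and SRPRA turned negative, and the list counts were lower: 0 higher and 2 lower in ER to Golgi transport, 2 and 3 among disulfide isomerases, 2 and 3 in ER-associated degradation, 2 and 3 in the translocon list and 4 and 3 among folding factors.

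**Figure D4:**
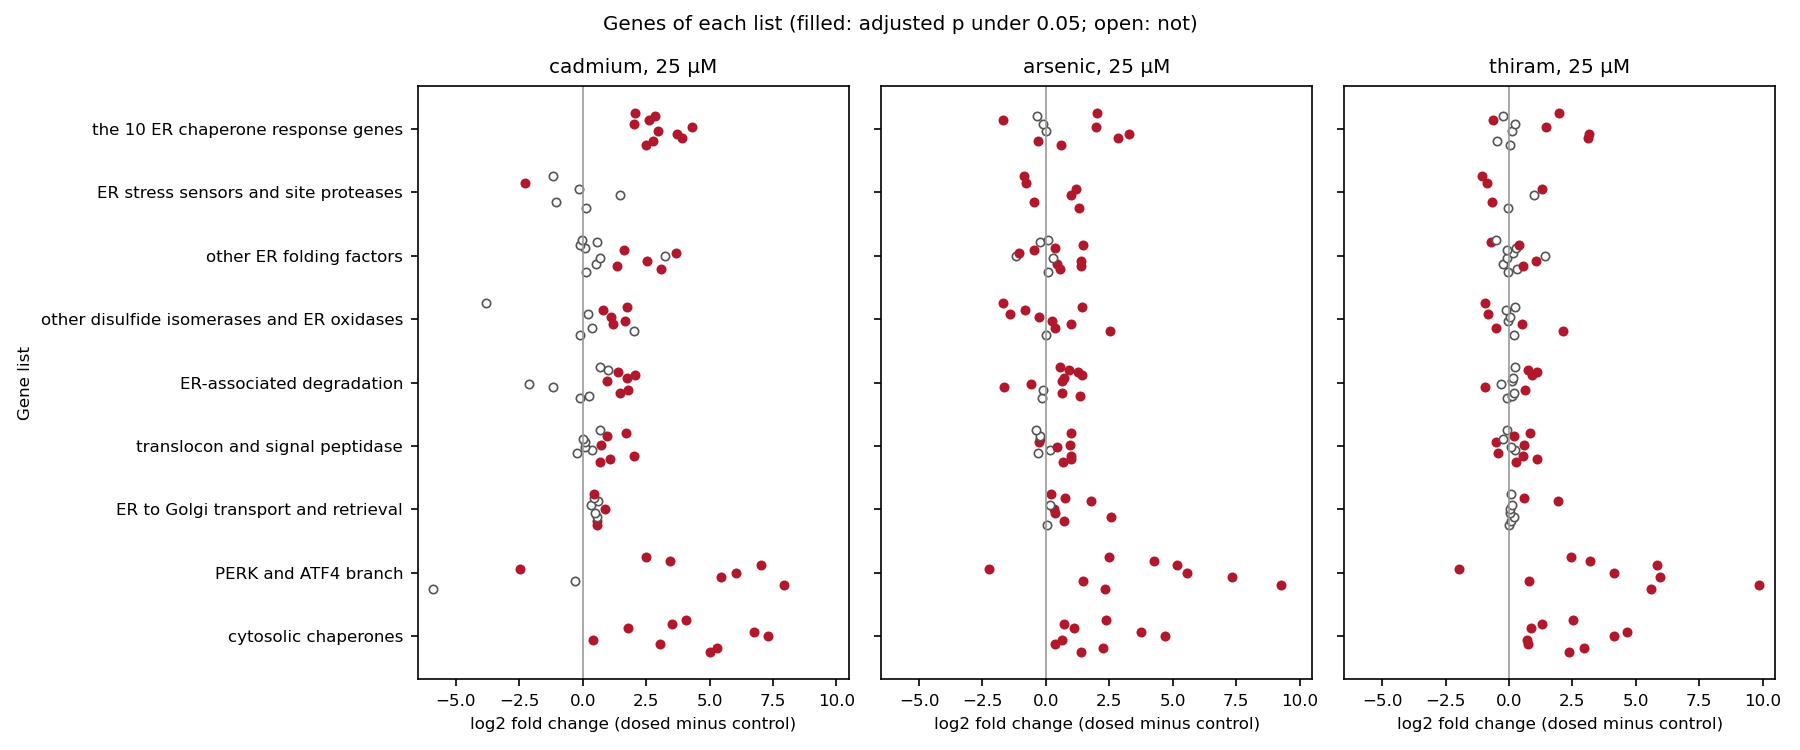
Each point is 1 gene of the list named at the left, placed by its log2 fold change at 25 µM against the plate controls, filled where the adjusted p was under 0.05. The 10 ER chaperone response genes all lie to the right of 0 in cadmium and on both sides of it in arsenic and thiram, while the 9 cytosolic chaperones lie to the right in all 3.

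In copper 14 of the 80 genes of these lists were called higher and 2 lower. Those of the ATF4 branch were ATF3 at 2.26, CHAC1 at 1.32, PPP1R15A at 0.83 and DDIT4 at -0.88, beside DDIT3. Those of ER to Golgi transport were SEC24D at 1.02, KDELR3 at 0.74 and MCFD2 at -0.31. The translocon list gave SPCS3 at 0.59, SSR3 at 0.50, SEC61A1 at 0.34, SRPRB at 0.31 and SSR1 at 0.30. The folding and disulfide lists gave FKBP14 at 0.55, QSOX1 at 0.62 and P4HB at 0.26. In lead 11 rose and DDIT4 fell, at -0.54. The 11 were HSPA1B at 0.97, HSPA1A at 0.95, KDELR3 at 0.93, SEC24D at 0.69, FKBP14 at 0.57, SSR3 at 0.47, MANF at 0.46, SIL1 at 0.41, QSOX1 at 0.38, SRPRB at 0.35 and TRIB3 at 0.30.

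Promoters with the same elements gave a mixed picture. Outside the 10 genes, 35 genes held an ERSE or ERSE-II in a promoter window. In cadmium 6 of the 24 tested were called higher and none lower, where 5.67% and 5.38% of all genes tested were. The 6 were FICD, which modifies HSPA5, at 5.38, CAMTA1 at 1.55, SERP1 at 1.39, NUCB1 at 1.10, PDIA6 at 0.78 and RUVBL2 at 0.33. In arsenic 8 of 24 were higher and 5 lower, where 23.2% and 18.2% of all genes were. In thiram 8 of 25 were higher and 3 lower, where 13.7% and 12.2% were. The median log2 changes of the tested genes were 0.23 in cadmium, 0.07 in arsenic and -0.02 in thiram. The genes called higher include FRG2B (6.995) and FRG2C (8.12) in arsenic, and FRG2 (6.73), FRG2B (8.396) and FRG2C (8.55) in thiram. Their standard errors were the largest among the genes called higher there. These like-named genes were counted as separate genes, and counts without them were not taken. Of the 8 genes with an element among the 10, HSP90B1, CALR, CRELD2, SDF2L1 and HYOU1 rose in cadmium and did not pass in thiram by edgeR. DESeq2 did call HSP90B1, CRELD2 and HYOU1 in thiram. Of the genes with no match, DNAJB9 rose in both chemicals, while PDIA4 rose in cadmium (2.60) and fell in thiram (-0.64).

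Over the 80 dosed groups of the 4 plates of run 2, the genes whose group means most resembled those of HSPA5 were mainly cytosolic chaperones and their partners. The measure was Pearson's r over plate-centred mean log2(CPM + 1), among the 7552 genes that averaged 4 or more in log2 CPM. DNAJA1 (r = 0.983), DNAJB1 (0.975), HSPH1 (0.965), ZFAND2A (0.964), DNAJC3 (0.963) and BAG3 (0.959) led. These values lean on the 3 strongest groups, and without them r was 0.872 for DNAJA1 and 0.721 for DNAJC3 over 77 groups. Among the 10 genes r with HSPA5 was 0.907 for CALR, 0.904 for HERPUD1, 0.902 for DNAJB9 and 0.424 for PDIA4. Without cadmium at 25 µM r was 0.939 for HERPUD1 and 0.891 for DNAJB9, 0.353 for HSP90B1 and -0.646 for PDIA4 over 79 groups, and without all 3 strong groups it was 0.537 for PDIA4 over 77. Groups of a plate share controls, depth and processing, so these are descriptions.

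By position in GRCh38 (GENCODE v29), several of the genes share exonic bases with a neighbour, all on the opposite strand but MIR3652. These are HSP90B1 with TTC41P, MIR3652 and C12orf73, DNAJB9 with PNPLA8 and THAP5, CALR with AC092069.1, CRELD2 with ALG12, and HYOU1 with AP003392.3. Whether counting used strand is not given in the sources used here, so reads of such pairs may be mixed. HSPA5 (chr9:125234853-125241330), SDF2L1 (chr22:21642261-21644298), HERPUD1 (chr16:56932048-56944863), XBP1 (chr22:28794555-28800597) and PDIA4 (chr7:149003062-149028641) share none.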

How the data were processed

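Read counts per gene symbol were used as deposited by the authors, 1 file per library without a header. Per the submitters' processing notes, FastQC, MultiQC, STAR, featureCounts and GRCh38 were used, with versions and strand handling not given in the sources used here. The labels mention no molecular identifiers, so counts are taken as reads. Groups follow the treatment labels, and plates the barcodes. The cadmium library with the barcode of another plate was left out of all tests but a named alternative.

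Each plate was fitted alone with edgeR 4.0.16 in R 4.3.3 (limma 3.58.1), with a separate mean for every dosed group and for the controls. Genes were filtered with filterByExpr (minimum count 10, minimum total 15), scaled by TMM and tested by the quasi-likelihood F-test, with the common dispersion from the top 5% of genes. Calls are at a Benjamini-Hochberg adjusted p under 0.05 over all genes of the plate. The test was tried on simulated counts. The standard error of a fold change is its size over the square root of F. P-values rest on a spread estimated over all groups of a plate, also for cadmium at 25 µM with its 2 libraries. They do not measure variation beyond the single expanded passage that all cultures came from.

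The 10 genes and the lists were chosen with earlier results of these data known. All 10 are named throughout. From each other list, in a chemical at 25 µM with at least 3 of the 10 called, the 2 called genes with the highest and the 2 with the lowest fold change are named, and for likeness to HSPA5 the 6 genes with the highest r. Other genes named beside them were chosen after their values were seen. Alternatives were DESeq2 1.42.0, RLE or no scaling, no filter, another dispersion estimate, a set term, either set of controls, either set of libraries, 2 groups alone, each replicate left out and a replicate block. No scaling, the other dispersion estimate and leaving out each control of the DDE plate were added after seeing the data. Replicate numbers paired lead and mercury only, where every same-numbered pair had r over 0.1 (lowest 0.129 and 0.117). Set 1 is dosed replicates 1 and 2 with the first 8 numbered controls, and set 2 the rest. Coordinates were taken from RefSeq (GRCh38.p14) and GENCODE v29.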

Additional observations from a re-analysis of the deposited data

Results flagged for a closer look

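The differences between arsenic and cadmium at 25 µM, tested directly by edgeR, were picked out because the same genes answered the 2 metals unequally. As arsenic minus cadmium on the log2 scale they were -4.31 for PDIA4, -3.21 for SDF2L1, -3.10 for CRELD2, -2.97 for HSP90B1, -2.29 for HSPA5, -2.12 for HYOU1, -1.92 for CALR and -1.07 for DNAJB9. Without scaling factors the first 7 were still called lower, DNAJB9 (-0.09) was not called, and XBP1 (0.98) and HERPUD1 (0.57) were called higher in arsenic. The cadmium group had 2 shallow libraries. In the cadmium library that was set aside, CALR stood at 769.9 reads per 1000000 of the library total, above the highest water control at 739, while HSPA5, HSP90B1, HERPUD1, XBP1, PDIA4 and CRELD2 lay within the control range, and DNAJB9, SDF2L1 and HYOU1 below it. That library carries the barcode of plate 3284-AT, in whose DMSO controls CALR ran from 691 to 989. Against those controls XBP1, at 133, lay above the highest (131), CRELD2, at 42.04, lay below the lowest (44.4), and the other 8 lay within. In the 28 called gene and group pairs with 4 libraries, which leaves out cadmium at 25 µM, Dixon's test for 1 library far from the others marked 0, where chance marks about 1 in 20.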

How the results depend on the processing

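Every call in cadmium at 25 µM held in all alternatives, as did HERPUD1, DNAJB9, XBP1, HSPA5 and PDIA4 in arsenic and thiram and CALR in arsenic. Leaving out a cadmium replicate left 1 library at 25 µM, which was assumed to vary like the other groups, and cadmium at 25 µM had no set 2 libraries. The cause of each change below was not tested. The calls over all genes changed with the settings too, and below they are given for thiram, copper and lead only.

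For DDE at 25 µM (1 gene) DESeq2 called 4, while the 2 groups alone and the legacy dispersion called 0. Leaving out a dosed replicate gave 0 to 1 and leaving out a control 0 to 4. For thiram DESeq2 called 8, and over all genes 3267 higher and 3456 lower, against 2927 and 2589 by edgeR. For copper at 25 µM set 1 gave 7 and set 2 gave 0, and leaving out a replicate gave 1 to 4. Over all genes copper gave 1319 higher and 1060 lower in set 1, 221 and 145 in set 2, and 700 and 536 with both. For lead set 2 gave 1, and leaving out a replicate gave 1 to 3. Over all genes lead gave 527 higher and 187 lower in set 2, and 523 and 413 with both sets. For MPB set 1 gave 1. Summed at 2.5 µM (8), first controls gave 4 and set 2 gave 4. Summed at 0.25 µM (1), DESeq2 gave 7, first controls 0, last controls 3, the set term 2, set 1 gave 4 and set 2 gave 4. Summed at 0.025 µM (0), DESeq2 gave 1, last controls 2, set 1 gave 2 and set 2 gave 1.

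For the copper trend (1), DESeq2 gave 3, RLE scaling 2, the replicate block 5, the set term 3, set 1 gave 5 and set 2 gave 0. For the lead trend (0) the replicate block gave 3, the set term 1 and set 1 gave 1. The block changed no other count of trends by over 1.5 times. Water against DMSO (1) gave 0 with first controls, last controls, set 1 or set 2. First against last controls of plate 3153-AT (1) gave 2 without scaling factors. No call on the 10 genes against controls changed sign. Leaving out 1 replicate gave 0 to 4 calls at 0.025 µM, 1 to 2 at 0.25 µM and 4 to 10 at 2.5 µM, 0 to 2 trends in copper and 0 to 1 in lead.

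In arsenic minus cadmium, HERPUD1 (-0.42) turned to 0.57 without scaling factors and to 0.20 with the set-aside cadmium library. XBP1 (-0.01) turned to 0.98 without scaling factors, 0.47 with it, 0.14 with first controls, 0.12 with last controls and 0.023 without the count filter. Leaving out 1 replicate gave XBP1 -0.041 to 0.083. Of these values HERPUD1 and XBP1 without scaling factors passed.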
